A study of Mus musculus with 24 samples.

Results

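The 10 genes described here are known from the endothelium of vessels and from the barrier that this endothelium forms in peripheral nerve. They were Pecam1, Cdh5, Cldn5, Kdr, Flt1, Tek, Slco1a4, Mfsd2a, Abcb1a and Plvap, chosen by name as known endothelial and blood-nerve barrier genes. Which cells gave their signal was not tested. The choice rule used no measured value, but earlier results of these data were known when it was made. Of 56605 gene probes on the array, which carry 37074 names in the files, 16 had 1 of these 10. For each gene the probe with the highest mean over the 24 arrays was used, and the others served as a check. All 10 of these probes passed the filter on dim probes (a signal well above background in every array of 1 or more groups), as did 36398 of all gene probes (64.3%), and the tests were run on all of these.

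Blood vessels inside a nerve are lined by endothelial cells that are sealed to each other by adherens and tight junctions. In the mature endoneurium these cells carry uptake and efflux transporters and few fenestrae, and together with the perineurium they form the blood-nerve barrier, which keeps plasma proteins and many small molecules away from the axons. Vascular endothelial growth factor (VEGF) and angiopoietin receptors on the same cells guide vessel growth and stability after birth.

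RNA came from C57BL/6 mice, with no further allele or treatment named in any group. Efferent nerve fibres (EN, the ventral roots) and afferent nerve fibres (AN, the dorsal roots) of spinal segments L4 to L6 were compared at 4 ages, the day of birth (P0) and 1, 3 or 5 weeks later (written 1 W, 3 W, 5 W). Each of the 8 groups had 3 arrays. Whole dissected roots were used, so that Schwann cells, fibroblasts, vessels and blood are measured along with the axons, and fewer cells of a type cannot be told apart from less RNA per cell. The design text gives 9 animals at each time point and 3 independent experiments, but not which animals make up a sample, so the p values below measure the spread between samples.

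Arrays had median signals between 45.4 and 191 and local backgrounds between 23 and 46. Of the gene spots, 55.1% to 71.7% per array passed the background test, and 0 were saturated. AN replicate 3 at 3 W was the array least like the others of its group (mean r = 0.961 over gene probes). In that array the summed signal of 7 neuron genes was 580100, against 32670 and 20860 in the other two AN arrays at 3 W, and AN values of the 10 genes at 3 W are given with and without it. Without it the rise since P0 at 3 W in AN was 4.64 in log2 units for Slco1a4, 3.06 for Mfsd2a, 1.57 for Abcb1a and 1.101 for Flt1. The changes of Cdh5 and Tek were -1.85 and -0.76, and these 6 genes still passed the test (adjusted p = 4.07e-10 to 0.00406). The defining markers of the vessel wall were present in each group, with 22 of 22 other endothelial identity genes (among them Tie1, Emcn and Vwf) above background on all 3 arrays of every group. Schwann cell genes were also above background in all groups (8 of 8).

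After birth 6 of the genes changed in the same direction in both roots. Of all tested probes 55% in EN and 51.8% in AN were called at 3 W against P0, and 54.2% and 50.6% at 5 W. The share of probes called alike in both roots was not counted. The barrier transporters Slco1a4, Mfsd2a and Abcb1a and the VEGF receptor gene Flt1 were higher at 3 W and 5 W than at P0 in EN and in AN. The junction gene Cdh5 and the fenestral diaphragm gene Plvap were lower at 3 W and 5 W in both. Changes ranged from a 42.7-fold rise of Slco1a4 to a 7.28-fold fall of Plvap. Kdr, Tek, Cldn5 and Pecam1 moved less, by at most 0.96 in log2 units between a later stage and P0.

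**Figure D1:**
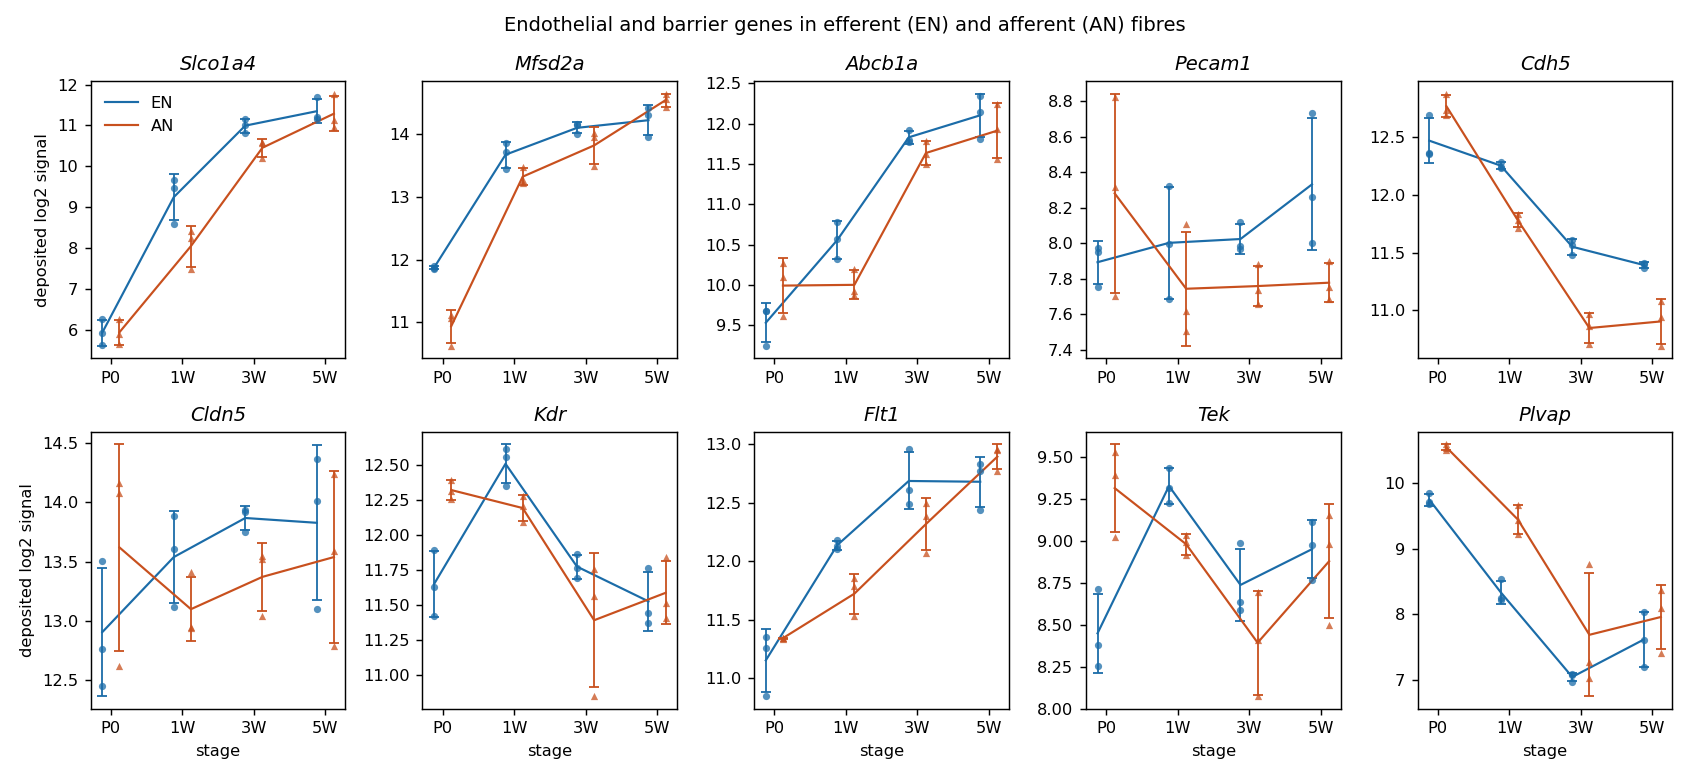
Deposited log2 signal of each gene (vertical axis) against age (horizontal axis) in EN (circles) and AN (triangles). Each point is 1 array, lines join the means of 3 arrays and bars show 1 SD. The Slco1a4 means climb to 11.35 (EN) and 11.29 (AN) at 5 W, while Plvap and Cdh5 fall in both roots.

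The 3 transporters are described first. Slco1a4 encodes an organic anion uptake transporter of barrier endothelium (Oatp1a4), Mfsd2a encodes the carrier that brings lysophospholipids with docosahexaenoic acid into brain and also restrains vesicle transport through endothelial cells, and Abcb1a encodes the efflux pump P-glycoprotein. Promoter windows are shown for these 3 because they rose together. The windows hold 250 bases before and 50 bases from the annotated transcription start, written 5′ to 3′ on the strand of the gene, and come from RefSeq on build GRCm38.p6. The letters CTTTGA, the core recognised by TCF/LEF factors, through which Wnt signals act on barrier endothelium, were searched on both strands and are in capitals, also where they read TCAAAG. The motif was chosen with the results of these genes known.
Slco1a4, chr6:141856171-141856470, minus strand: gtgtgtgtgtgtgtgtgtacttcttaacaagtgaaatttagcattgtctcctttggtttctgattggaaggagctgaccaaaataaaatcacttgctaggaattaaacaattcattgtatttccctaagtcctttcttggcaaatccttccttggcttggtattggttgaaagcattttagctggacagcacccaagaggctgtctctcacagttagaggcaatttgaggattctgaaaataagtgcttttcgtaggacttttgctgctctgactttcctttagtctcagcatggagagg
Mfsd2a, chr4:122961139-122961438, minus strand: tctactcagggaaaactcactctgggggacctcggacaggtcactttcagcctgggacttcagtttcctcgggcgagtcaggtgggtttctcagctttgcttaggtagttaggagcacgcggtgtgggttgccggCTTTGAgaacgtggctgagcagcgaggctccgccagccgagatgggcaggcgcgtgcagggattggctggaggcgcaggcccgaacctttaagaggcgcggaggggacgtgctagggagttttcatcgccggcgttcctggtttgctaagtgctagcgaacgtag
Abcb1a, chr5:8566841-8567140, plus strand: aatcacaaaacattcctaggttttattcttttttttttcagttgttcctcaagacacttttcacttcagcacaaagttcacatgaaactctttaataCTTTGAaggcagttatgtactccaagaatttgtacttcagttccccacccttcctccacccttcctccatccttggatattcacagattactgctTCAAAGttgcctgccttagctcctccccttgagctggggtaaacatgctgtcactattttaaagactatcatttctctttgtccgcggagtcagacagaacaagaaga
The Mfsd2a window held 1 match, which begins 115 bases before the start. The Abcb1a window held 2, which begin 153 and 58 bases before the start, the second on the other strand. There was none in the Slco1a4 window, nor in those of Kdr, Flt1, Tek and Cldn5, while Pecam1, Cdh5 and Plvap had no entry in the table. Of all 32851 windows of this length in the table, 5257 held at least 1 match and 1.73% held 2 or more. The windows also differed in base composition, with 22 CpG in that of Mfsd2a, 2 in that of Abcb1a and 1 in that of Slco1a4, against a median of 7 over all windows.

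Slco1a4 started near background. In EN its log2 signal was 6.26, 5.92 and 5.62 at P0, 9.46, 9.67 and 8.60 at 1 W, 11.16, 10.82 and 11.01 at 3 W, and 11.20, 11.69 and 11.15 at 5 W. The AN signal was 6.26, 5.65 and 5.90 at P0, 8.24, 8.43 and 7.48 at 1 W, 10.57, 10.60 and 10.20 at 3 W, and 11.12, 11.78 and 10.96 at 5 W. Every later array lay above every P0 array, and at P0 only 2 of 3 arrays in each root were well above background. The rise since P0 in EN was 9.95-fold at 1 W, 33.4-fold at 3 W and 42.7-fold at 5 W (adjusted p = 4.32e-07, 2.58e-10 and 5.63e-11 in limma), while the AN values were 4.31-fold, 22.9-fold and 40.7-fold (5.12e-05, 1.06e-09 and 6.13e-11). Since the P0 signal was close to background, these folds rest on a low baseline. On the only slide that held both P0 and 5 W arrays, the log2 rise was 5.92 in EN and 6.00 in AN. The step from 1 W to 3 W passed the test in both roots (1.75 ± 0.30 in EN and 2.41 ± 0.30 in AN, log2 ± SE, adjusted p = 2.77e-04 and 1.21e-05), and the step from 3 W to 5 W did not (0.35 and 0.83, adjusted p = 0.58 and 0.125).

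Mfsd2a rose in both roots, and started lower in AN. Its EN values were 11.87, 11.85 and 11.89 at P0, 13.72, 13.85 and 13.45 at 1 W, 14.16, 14.005 and 14.14 at 3 W, and 14.30, 14.42 and 13.96 at 5 W. The AN values were 11.11, 10.63 and 11.07 at P0, 13.27, 13.48 and 13.23 at 1 W, 13.96, 14.02 and 13.49 at 3 W, and 14.43, 14.64 and 14.57 at 5 W. No AN array at P0 reached the lowest EN array, whereas at 5 W all 3 AN arrays were above all 3 EN arrays. In EN the gene was 3.49-fold, 4.70-fold and 5.11-fold above P0 at 1 W, 3 W and 5 W, and in AN 5.23-fold, 7.40-fold and 12.2-fold, with adjusted p between 5.65e-12 and 4.72e-07 for the 6 values. After 1 W it went on rising in AN, by 0.50 ± 0.16 to 3 W and 0.72 ± 0.16 to 5 W (adjusted p = 0.0264 and 0.0168), although the second step did not pass without AN replicate 3 at 3 W (0.55, adjusted p = 0.0733) or with the slide as a block (0.60, adjusted p = 0.0973). In EN the steps were 0.43 and 0.12, and neither passed the test (adjusted p = 0.0567 and 0.747).

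Abcb1a rose in both roots. Its EN values were 9.67, 9.68 and 9.25 at P0, 10.32, 10.79 and 10.57 at 1 W, 11.77, 11.80 and 11.93 at 3 W, and 11.82, 12.15 and 12.35 at 5 W. In AN the arrays read 9.62, 10.27 and 10.09 at P0 and 9.87, 10.21 and 9.93 at 1 W, then 11.50, 11.63 and 11.79 at 3 W and 11.57, 12.24 and 11.94 at 5 W. The P0 and 1 W arrays of AN overlapped, and those of EN did not, but the difference between the roots in the change at 1 W did not pass its own test (-1.02, adjusted p = 0.256, and 0.0659 with pairs as a block). In EN the gene was 2.04-fold above P0 at 1 W, 4.92-fold at 3 W and 5.94-fold at 5 W (adjusted p = 9.65e-04, 3.09e-08 and 4.78e-09). In AN the log2 change was 0.01 ± 0.20 at 1 W (adjusted p = 0.982), and the gene had risen 3.12-fold at 3 W and 3.79-fold at 5 W (adjusted p = 1.98e-06 and 2.14e-07). Abcb1b and Abcb4, close relatives of Abcb1a in sequence, ran almost parallel to it over the 24 arrays (r = 0.987 and 0.99), and signal shared between the probes of such relatives was not tested. The other Abcb1a probe was above background on only 2 arrays.

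Among the junction and adhesion genes, Cdh5 fell. Pecam1 and Cldn5 did not pass the test against P0 at any stage, but did so under some other settings, given with their values. Cdh5 encodes VE-cadherin, the cadherin of endothelial adherens junctions. Its EN values were 12.69, 12.37 and 12.35 at P0, 12.24, 12.24 and 12.29 at 1 W, 11.57, 11.48 and 11.61 at 3 W, and 11.37, 11.40 and 11.42 at 5 W. The AN values were 12.70, 12.73 and 12.88 at P0, 11.84, 11.79 and 11.72 at 1 W, 10.97, 10.86 and 10.71 at 3 W, and 11.08, 10.696 and 10.94 at 5 W. From 1 W on, every AN array was below every EN array of its stage. In AN the gene was 1.99-fold below P0 at 1 W, 3.79-fold at 3 W and 3.64-fold at 5 W (adjusted p = 6.72e-06, 3.39e-10 and 2.25e-10). In EN the change at 1 W was -0.22 ± 0.11 (adjusted p = 0.173), and the gene had then fallen 1.89-fold at 3 W and 2.11-fold at 5 W (adjusted p = 2.56e-06 and 2.90e-07).

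Cldn5 encodes claudin 5, the main claudin of endothelial tight junctions, and it was the most variable of the 10 genes at P0. Its arrays read 12.45, 13.50 and 12.76 in EN and 12.62, 14.17 and 14.08 in AN at that stage. Replicate 1 had the lowest or nearly the lowest value at P0, 1 W and 5 W in both roots, so that most stages overlapped, although the 3 W arrays of EN lay above all P0 arrays of EN. In EN the change since P0 was 0.63, 0.96 and 0.92 with a standard error of 0.42 (adjusted p = 0.28, 0.0581 and 0.0699). With the slide as a block the changes at 1 W and 5 W passed the test (0.94 and 0.99, adjusted p = 0.0105 and 0.00728), as did those at 3 W and 5 W with the replicate number as a block (adjusted p = 0.0171 and 0.0217). In AN it was -0.52, -0.25 and -0.08, and none passed.

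Pecam1 encodes CD31, an adhesion molecule of endothelial cells that platelets and leukocytes carry as well. It had mean log2 signals of 7.89 ± 0.12 in EN and 8.28 ± 0.56 in AN at P0 (SD, n = 3) and 8.33 ± 0.37 and 7.78 ± 0.11 at 5 W. The EN change at 5 W was 0.44 ± 0.24 and the AN change -0.50 ± 0.24 (adjusted p = 0.127 and 0.0849). AN replicate 1 at P0 read 7.70, below the other two (8.83 and 8.32), and without it the AN changes at the later ages were, in order, -0.83, -0.81 and -0.79 (adjusted p = 0.0153, 0.00654 and 0.00746), in place of -0.54, -0.52 and -0.50. With the slide as a block all 3 AN changes passed (-0.45, -0.97 and -0.69, adjusted p = 0.0444, 0.00391 and 0.00379), and with the replicate number as a block those at 3 W and 5 W did (adjusted p = 0.0407 and 0.049). Leukocyte and platelet genes moved over the same stages, as given further on, and their part in the Pecam1 signal was not tested.

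The receptor genes fell into different courses. Kdr encodes VEGF receptor 2, the main signalling receptor for VEGF in endothelium, and Tek encodes Tie2, the receptor of the angiopoietins. In EN, Kdr read 11.89, 11.63 and 11.42 at P0, 12.62, 12.35 and 12.56 at 1 W, 11.87, 11.76 and 11.70 at 3 W, and 11.76, 11.37 and 11.45 at 5 W. In AN it read 12.26, 12.31 and 12.40 at P0, 12.28, 12.21 and 12.09 at 1 W, 11.76, 11.57 and 10.85 at 3 W, and 11.84, 11.41 and 11.51 at 5 W. The 1 W arrays of EN stood above all other EN arrays, and the 3 W and 5 W arrays of AN stood below all earlier AN arrays. Kdr was 1.82-fold above P0 in EN at 1 W (adjusted p = 0.00245) and did not pass the test at 3 W or 5 W (0.13 and -0.12). In AN it fell 1.91-fold by 3 W and was 1.66-fold lower at 5 W (adjusted p = 4.60e-04 and 0.00315). Without AN replicate 3 the change at 3 W was -0.66 (adjusted p = 0.00219).

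Tek took a similar course. Its EN arrays read 8.71, 8.25 and 8.38 at P0, 9.32, 9.43 and 9.22 at 1 W, 8.98, 8.59 and 8.63 at 3 W, and 9.11, 8.97 and 8.76 at 5 W. The AN arrays read 9.02, 9.39 and 9.53 at P0, 8.91, 9.03 and 8.99 at 1 W, 8.41, 8.69 and 8.07 at 3 W, and 9.15, 8.98 and 8.50 at 5 W. All 1 W arrays of EN lay above the P0 arrays, and all 3 W arrays of AN lay below them. In EN, Tek rose 1.84-fold at 1 W and was 1.42-fold higher at 5 W (adjusted p = 0.00223 and 0.0326), with 0.29 ± 0.19 at 3 W (adjusted p = 0.207). The 5 W value did not pass the test without EN replicate 2 or 3 at P0 or without EN replicate 1 or 2 at 5 W (0.40 to 0.49, adjusted p = 0.0687 to 0.124). In AN, Tek fell 1.89-fold at 3 W (adjusted p = 5.34e-04). All 3 W arrays and no P0 array were on the same slide, and with the slide as a block this change was -0.57 (adjusted p = 0.0914).

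Flt1 encodes VEGF receptor 1, which binds VEGF with high affinity, signals weakly and is also made as a soluble decoy. Its main probe rose in EN from 11.36, 11.25 and 10.84 at P0 through 12.10, 12.18 and 12.13 at 1 W to 12.96, 12.61 and 12.49 at 3 W and 12.83, 12.44 and 12.77 at 5 W. In AN it went from 11.34, 11.35 and 11.34 through 11.78, 11.85 and 11.53 to 12.496, 12.39 and 12.07 and then 12.96, 12.77 and 12.95. Every later array was above every P0 array of its root. The rise was 1.98-fold, 2.90-fold and 2.89-fold in EN (adjusted p = 1.75e-04, 2.42e-07 and 1.89e-07). In AN it was 1.302-fold at 1 W, which did not pass the test (adjusted p = 0.0928), 1.97-fold at 3 W and 2.94-fold at 5 W (adjusted p = 4.72e-05 and 1.56e-07).

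The probes of Flt1 differed in direction. The main probe, named in the files for the transcript NM_010228, lies at chr5:148373791-148373850 on mm9, the build that the array files use. Both other probes above background on all arrays are named for the same transcript, ENSMUST00000110529, and lie at chr5:148448888-148448947 and chr5:148450688-148450747. The first of them rose more than the main probe, by 2.74 ± 0.27 in EN and 2.49 ± 0.27 in AN at 5 W (adjusted p = 9.11e-08 and 3.12e-07). The second went the other way in AN, with -0.63, -1.12 and -0.67 at 1 W, 3 W and 5 W (SE 0.19, adjusted p = 0.0208, 6.22e-05 and 0.0057), and in EN at 3 W (-0.54, adjusted p = 0.0204). Which transcripts each probe detects was not tested, and the rise of Flt1 is therefore a statement about 2 of its 3 measured probes. The remaining Flt1 probe and both further probes of Kdr were above background on 0 arrays.

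**Figure D2:**
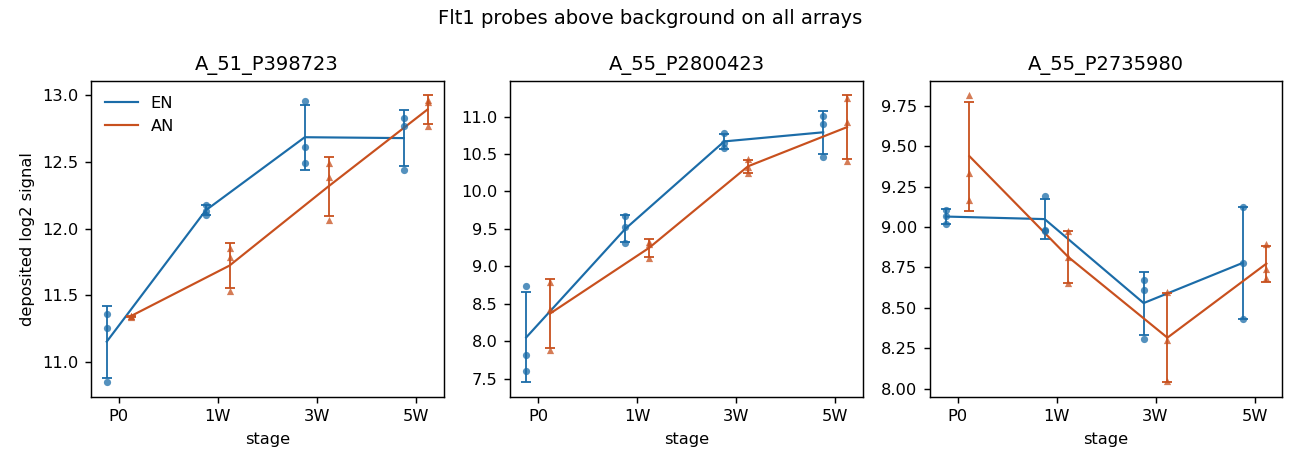
Deposited log2 signal (vertical axis) of the 3 Flt1 probes above background on all 24 arrays, against age (horizontal axis), in EN (circles) and AN (triangles), with 1 point per array, lines through means and bars of 1 SD. The first and second panels rise with age, and the last falls from 9.44 to 8.32 between P0 and 3 W in AN.

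Plvap encodes the protein of the diaphragms that span fenestrae and caveolae, a marker of leaky or immature endothelium. Its EN values were 9.85, 9.71 and 9.69 at P0, 8.25, 8.21 and 8.54 at 1 W, 7.07, 6.97 and 7.08 at 3 W, and 7.60, 7.19 and 8.04 at 5 W. The AN values were 10.51, 10.59 and 10.54 at P0, 9.23, 9.44 and 9.66 at 1 W, 7.26, 7.03 and 8.76 at 3 W, and 8.36, 8.10 and 7.40 at 5 W. All later arrays of both roots lay below all P0 arrays of the same root, and replicate 3 was the highest AN array at 3 W. In EN, Plvap fell 2.67-fold at 1 W, 6.54-fold at 3 W and 4.40-fold at 5 W (adjusted p = 0.00351, 1.77e-06 and 2.16e-05). In AN it fell 2.15-fold, 7.28-fold and 6.03-fold (adjusted p = 0.0205, 9.70e-07 and 2.44e-06). Without AN replicate 3 at 3 W, the AN change at that stage was -3.40 against -2.86 with it. The fall at 1 W in AN did not pass the test when AN replicate 2 or 3 at P0 or AN replicate 1 or 2 at 1 W was left out (-1.11 to -0.997, adjusted p = 0.0515 to 0.0781). The step from 3 W to 5 W did not pass the test (0.57 ± 0.33 in EN and 0.27 ± 0.33 in AN, adjusted p = 0.395 and 0.705).

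Counted over the 10 genes, 6 rose and 1 fell in EN at 1 W, when 15.5% of all tested probes were higher and 11.6% lower. At 3 W in EN 4 rose and 2 fell (29% and 26.1% of all probes), and at 5 W 5 rose and 2 fell (28.2% and 26%). In AN 2 rose and 2 fell at 1 W (12.3% and 9.35%), 4 rose and 4 fell at 3 W (26.8% and 24.9%), and 4 rose and 3 fell at 5 W (26.4% and 24.2%). From 3 W on, 50.6% to 55% of all tested probes had changed since P0 in 1 direction or the other, so that 6 to 8 calls among 10 genes is not far from the background. Slco1a4, Mfsd2a and Plvap passed the test in all 6 comparisons with P0, each in 1 direction. The median change of the 10 genes at 5 W was 0.71 in EN and -0.26 in AN, beside 0.04 and 0.03 over all tested probes. EN and AN are each compared with their own P0 group.

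**Figure D3:**
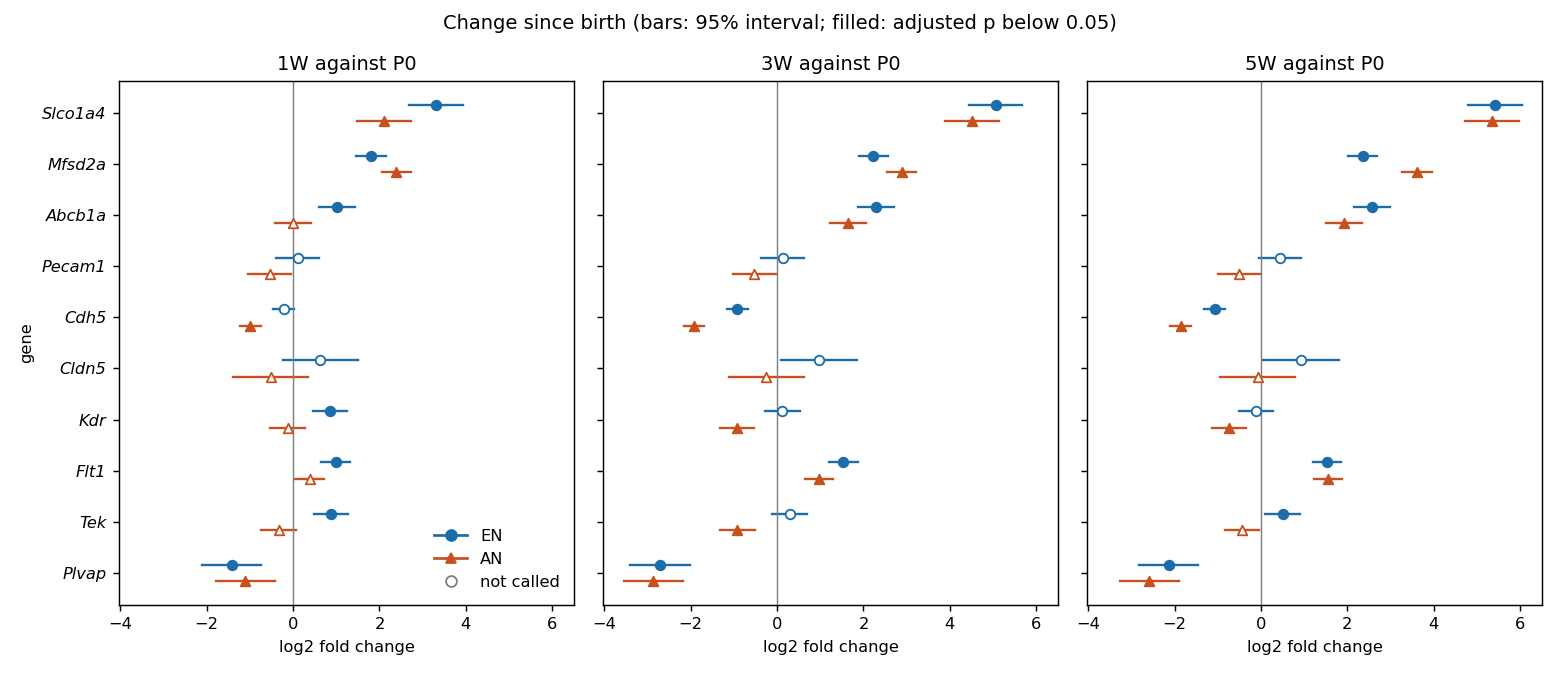
Log2 fold change since P0 (horizontal axis) of each gene (vertical axis) at 1 W, 3 W and 5 W, in EN (circles) and AN (triangles), with 95% intervals and filled symbols where the adjusted p was below 0.05. Slco1a4, Mfsd2a and Plvap are filled in both roots at all 3 stages, and Pecam1 and Cldn5 at none.

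The roots were then compared directly at each stage. At P0, 9 of the 10 genes had a higher mean in AN than in EN. The size differed by slide. On the slide with replicate 1 the AN minus EN difference was -0.05 for Pecam1, 0.002 for Cdh5, -0.02 for Flt1 and -0.06 for Abcb1a. On the slide with replicates 2 and 3 it was 0.61, 0.45, 0.29 and 0.72. Kdr, Tek, Cldn5 and Plvap were higher in AN on both (0.36, 0.31, 0.17 and 0.65, then 0.83, 1.14, 0.99 and 0.87), and Slco1a4 gave 0.01 on both. Tek was 1.82-fold higher in AN and Mfsd2a 1.91-fold lower (log2 0.86 ± 0.19 and -0.93 ± 0.16, adjusted p = 0.0398 and 0.0101), and these 2 were the calls among the 10, when 0.223% of all probes were higher and 0.517% lower. For both genes the 3 arrays of one root lay apart from the 3 of the other. The same was true of Kdr (0.67 ± 0.19, adjusted p = 0.139), Cdh5 (0.30 ± 0.11, adjusted p = 0.418) and Plvap (0.80 ± 0.33, adjusted p = 0.498), which did not pass the test. How many of all tested probes had arrays that lay apart in this way was not counted, here or at the later stages. AN and EN samples of the same number deviated together from their group means, and with the AN-EN pair as a block Kdr passed too (adjusted p = 0.0354). That block called 3.85% of all tested probes, beside 0.739% without it. The Tek call did not hold when any of 5 of the 6 P0 arrays was left out, with adjusted p from 0.0626 (without EN replicate 1) to 0.197 (without AN replicate 3). That of Mfsd2a did not hold without AN replicate 2 (-0.78, adjusted p = 0.0799) or without EN replicate 3 (adjusted p = 0.053).

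At 1 W 9 of the 10 genes had the lower mean in AN, most of them by amounts that did not pass the test. The median AN minus EN difference of the 10 genes was 0.42 at P0, -0.38 at 1 W and -0.36 at 3 W. Over all tested probes it was 0.006, -0.06 and -0.03, and the share of all probes with each sign was not counted. Slco1a4 was 2.30-fold lower in AN and Cdh5 1.39-fold lower (log2 -1.20 ± 0.30 and -0.47 ± 0.11, adjusted p = 0.0253 and 0.0222), with no overlap of the arrays. No gene of the 10 was called higher, and over all probes 2.74% were higher and 1.26% lower. Plvap was the gene with the higher mean in AN, by 1.11 ± 0.33, and its 3 AN arrays were above all EN arrays (adjusted p = 0.0661). With pairs as a block Abcb1a (-0.56, adjusted p = 0.0442) and Flt1 (-0.42, adjusted p = 0.0364) passed as well, making 4 calls in place of 2. That block called 10.8% of all tested probes, beside 4.01% without it. Leaving out any single 1 W array took the Cdh5 call away (adjusted p = 0.0562 to 0.102), while its log2 difference stayed between -0.50 and -0.44. That of Slco1a4 did not hold without AN replicate 1 or 3 or without EN replicate 1 or 2 at 1 W (-1.29 to -0.91, adjusted p = 0.0548 to 0.164). Neuron genes also differed between the roots at this age, with 5 of 7 called higher in AN and a median difference of 4.16. Their part in the results at 1 W was not tested.

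At 3 W and 5 W Cdh5 was the single call among the 10 genes. It was 1.63-fold lower in AN at 3 W and 1.40-fold lower at 5 W (log2 -0.70 ± 0.11 and -0.49 ± 0.11, adjusted p = 0.00106 and 0.0131). Over all probes 3.07% were higher in AN and 2.82% lower at 3 W, and 3.52% and 3.24% at 5 W. Without AN replicate 3 at 3 W the Cdh5 difference was -0.64 (adjusted p = 0.00647), and without AN replicate 2 at 5 W it was -0.38 and did not pass (adjusted p = 0.0828). With pairs as a block Slco1a4 (-0.54, adjusted p = 0.0148) and Flt1 (-0.37, adjusted p = 0.0359) also passed at 3 W, though neither did when AN replicate 3 was left out as well (adjusted p = 0.0808 and 0.118), and Pecam1 (-0.55, adjusted p = 0.0307) at 5 W. That block called 21.1% of all tested probes at 3 W and 23.5% at 5 W, beside 5.89% and 6.77% without it. For Slco1a4 the difference at 5 W was -0.06 with a 95% interval of -0.68 to 0.56, and for Abcb1a it was -0.19 with an interval of -0.61 to 0.23.

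**Figure D4:**
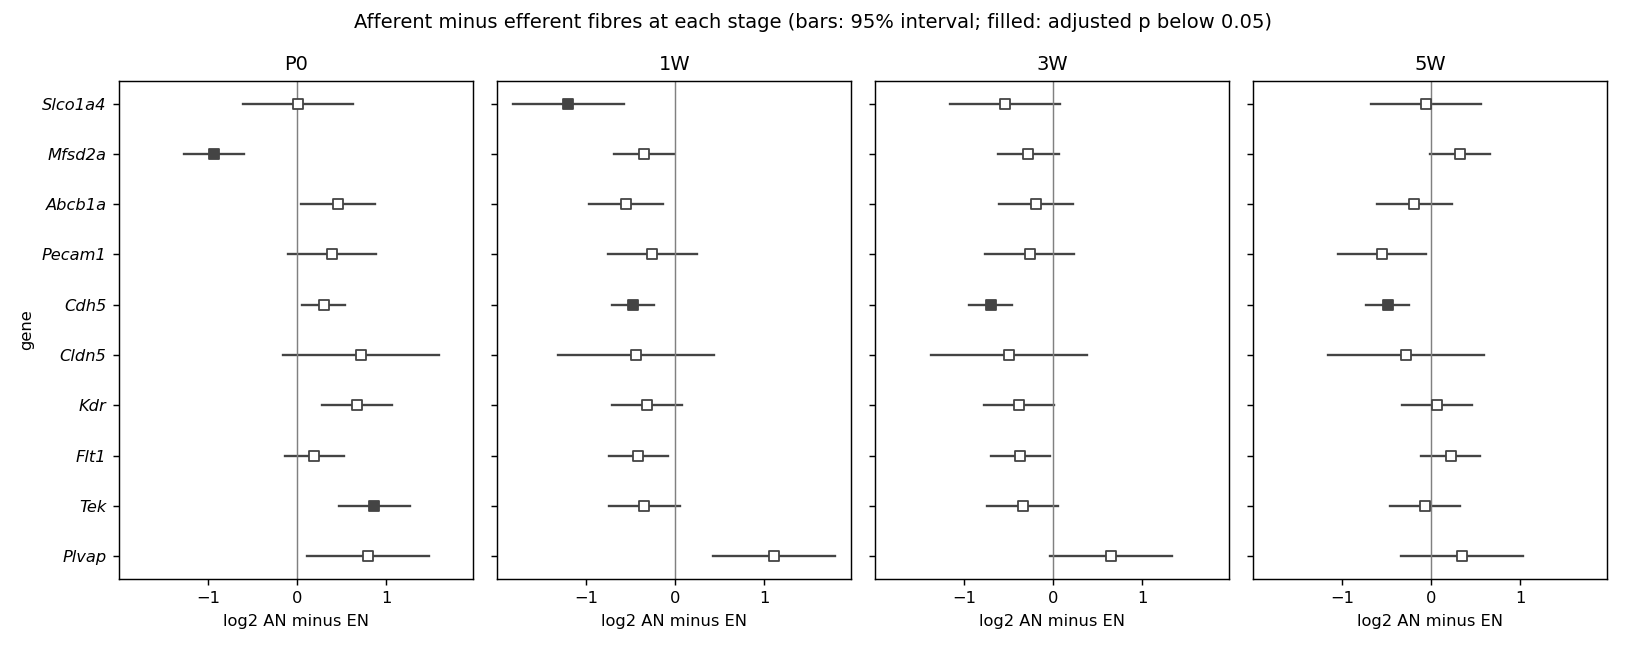
Log2 difference of AN minus EN (horizontal axis) for each gene (vertical axis) at each age, with 95% intervals and filled squares where the adjusted p was below 0.05. At P0, 9 of 10 squares lie to the right of 0, and at 1 W and at 3 W 9 of 10 lie to the left.

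Whether the course since P0 differed between the roots was tested as an interaction, the AN-EN difference at a later stage minus that at P0. At 1 W no gene passed in limma, when 0.022% of all probes were called higher and 0.0412% lower. An unadjusted p below 0.05 was found for 7 of 10 genes, and the share of all probes at that looser threshold was not counted. With pairs as a block, Slco1a4 passed (-1.21, adjusted p = 0.0239), when 0.736% of all tested probes were called. At 3 W Cdh5 (-1.002 ± 0.16, adjusted p = 0.00731) and Tek (-1.21 ± 0.27, adjusted p = 0.0465) passed, both lower (0.321% of probes higher and 0.294% lower). The value of Cdh5 is a 2.003-fold ratio between the 3.79-fold fall in AN and the 1.89-fold fall in EN. Without AN replicate 3 at 3 W, Cdh5 gave -0.93 (adjusted p = 0.0126) and Tek -1.05 (adjusted p = 0.0967). The Tek call was lost in 9 of the 12 fits that left out 1 P0 or 3 W array. At 5 W Cdh5 (-0.79 ± 0.16, adjusted p = 0.0201) was lower and Mfsd2a (1.26 ± 0.23, adjusted p = 0.0108) higher (0.69% and 0.451% of probes). Without AN replicate 3 or EN replicate 2 or 3 at P0, or AN replicate 2 at 5 W, Cdh5 gave -0.74 to -0.68 (adjusted p = 0.0518 to 0.0644). With pairs as a block Kdr and Cldn5 also passed at 3 W (-1.06 and -1.21, adjusted p = 0.0262 and 0.0325, and without AN replicate 3 -0.82 and -1.11, adjusted p = 0.0341 and 0.0723), and Pecam1 and Cldn5 at 5 W (-0.94 and -1.005, adjusted p = 0.0351 and 0.0466). That block called 4.14% of all tested probes at 3 W and 6.8% at 5 W. The median interaction of the 10 genes was -0.88, -0.65 and -0.63 at 1 W, 3 W and 5 W, beside -0.04, -0.02 and -0.02 over all probes. These 3 medians share the P0 arrays, in which the AN minus EN difference of several genes differed by slide.

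Other genes of the endothelium and its barrier were counted in the same comparisons. Of 22 other endothelial identity genes, 15 rose and 0 fell in EN at 1 W (median 0.68), while in AN 1 rose and 2 fell (median -0.01). At 3 W 11 rose and 3 fell in EN (median 0.53), and 2 rose and 12 fell in AN (median -0.46), or 2 and 10 without AN replicate 3 (median -0.37). Egfl7, a secreted protein of the endothelial matrix, rose by 1.60 in EN and 0.79 in AN at 5 W (adjusted p = 3.42e-07 and 8.13e-04). Emcn, a sialomucin of capillaries and veins, fell in both roots like Cdh5, by 0.81 in EN and by 1.40 in AN at 5 W (adjusted p = 1.46e-04 and 2.69e-07). Tie1, the partner receptor of Tek, rose by 0.67 in EN at 1 W (adjusted p = 0.0308) and fell by 1.002 in AN at 3 W (adjusted p = 9.68e-04), with -0.72 without AN replicate 3 (adjusted p = 0.00664). At 3 W, 6 of the 22 were called lower in AN than in EN and 0 higher, and without AN replicate 3 the counts were 2 and 0. The summed signal of the 22 genes was 100800 in that array and 131600 and 122600 in the other AN arrays at 3 W. The arterial factor Sox17 was higher at 5 W in both roots, by 0.95 in EN and 0.61 in AN (adjusted p = 3.09e-04 and 0.0114).

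Of 15 further barrier transporters, 9 rose and 2 fell in EN at 5 W (median 0.82), and 7 rose and 4 fell in AN (median 0.57). Slc2a1, the glucose transporter GLUT1, rose by 2.31 in EN and 2.15 in AN (adjusted p = 5.53e-08 and 1.40e-07), and it is also made by perineurial cells and other cells of nerve. Slco1c1, a thyroxine transporter related to Slco1a4, rose by 3.41 and 2.04 (adjusted p = 1.77e-08 and 1.05e-05). At 1 W it had risen in EN (1.84, adjusted p = 1.67e-04) and gave -0.12 in AN (adjusted p = 0.817). The efflux pump Abcg2 rose less, by 0.92 and 0.42 (adjusted p = 5.06e-05 and 0.0279).

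Tight junction genes were mixed, with 5 of 13 higher and 3 lower in EN and 5 and 4 in AN at 5 W. Ocln (occludin) rose by 0.61 in EN (adjusted p = 2.01e-04) and gave 0.11 in AN (adjusted p = 0.442), and it was lower in AN than in EN at 1 W, 3 W and 5 W (-0.65, -0.53 and -0.49, adjusted p = 0.00469, 0.0108 and 0.0145). Cldn1, a claudin of the perineurium, fell by 0.60 and by 1.36 (adjusted p = 0.0167 and 1.55e-05). Cldn19, which rose by 1.81 in EN and 2.75 in AN (adjusted p = 1.67e-05 and 1.11e-07), has a known place in Schwann cells as well. The scaffold Tjp1 gave 0.34 in EN (adjusted p = 0.05) and rose by 0.61 in AN (adjusted p = 0.00142).

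In the Wnt and norrin pathway that induces barrier properties in brain and retina, 2 of 16 genes rose and 3 fell in EN at 5 W, and 2 rose and 7 fell in AN. The Wnt target Apcdd1 fell by 1.74 in AN (adjusted p = 1.23e-05) and gave -0.22 in EN (adjusted p = 0.485). The transcription factor gene Lef1 fell by 0.65 in AN (adjusted p = 0.00471) and gave -0.14 in EN (adjusted p = 0.527), and the gene of beta-catenin, Ctnnb1, fell by 0.51 and by 0.49 (adjusted p = 0.00306 and 0.00482). Among 13 tested ligands and modulators of VEGF and angiopoietin signalling, 3 rose and 4 fell in EN and 4 rose and 7 fell in AN. Vegfa, the main ligand of Kdr and Flt1, rose by 0.90 in EN at 1 W (adjusted p = 0.00994) and fell by 0.80 in AN at 3 W (adjusted p = 0.00998). Angpt1, the activating ligand of Tek, fell by 0.78 in EN and by 1.62 in AN at 5 W (adjusted p = 0.00878 and 1.17e-05). Angpt2, which can act against it, was higher at 3 W in both (1.00 and 0.97, adjusted p = 0.00426 and 0.00574). Of 10 tip cell and sprouting genes, 2 rose and 3 fell in EN at 5 W and 1 rose and 4 fell in AN. Esm1, a tip cell product, fell by 1.82 and by 1.80 (adjusted p = 1.97e-04 and 2.34e-04).

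Of 9 tested vein, caveola and adhesion genes, 7 rose and 1 fell in EN at 5 W (median 1.54) and 4 rose and 1 fell in AN (median 0.22). Ackr1, a chemokine-binding receptor of venules, rose by 2.25 and 2.18 (adjusted p = 3.97e-09 and 5.52e-09), and Vcam1 by 2.10 and 1.37 (adjusted p = 1.30e-07 and 2.31e-05). Cavin1, a caveola coat gene, rose by 1.54 and 1.34 while Plvap fell. Of 11 mural cell genes, 5 rose and 3 fell in each root. The pericyte genes Pdgfrb and Rgs5 rose by 1.11 and 1.25 in EN and by 0.81 and 0.92 in AN (adjusted p between 4.90e-06 and 0.00247).

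**Figure D5:**
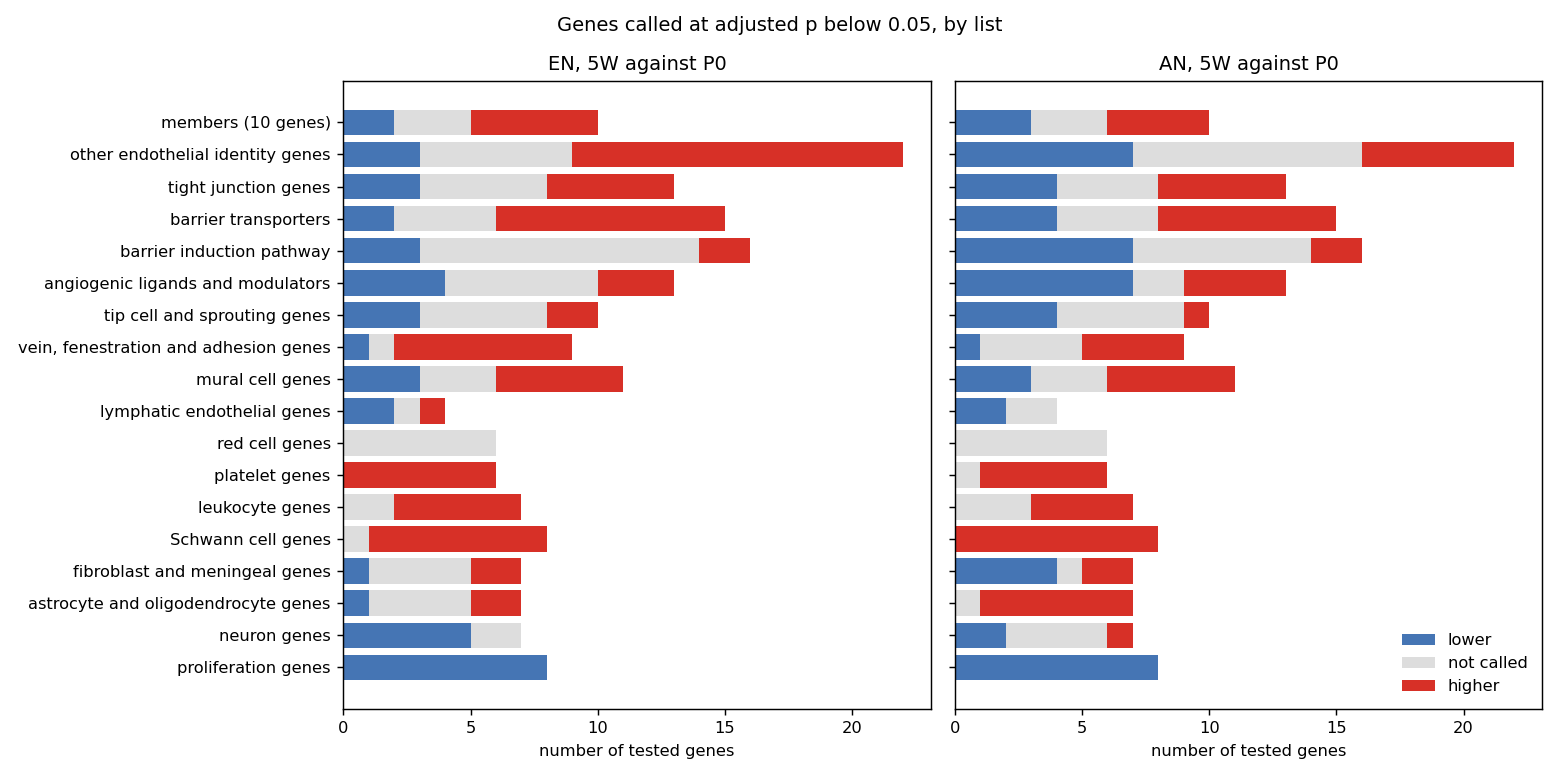
Number of tested genes (horizontal axis) called lower (blue), not called (grey) and called higher (red) at 5 W against P0 in each gene list (vertical axis), in EN on the left and AN on the right. Of 22 other endothelial identity genes 13 are red in EN and 6 in AN, and all 8 proliferation genes are blue in both.

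Genes of other cell types moved over the same stages. Of 8 proliferation genes 8 fell at 5 W in each root (median -4.12 in EN and -4.66 in AN), and their summed signal went from between 41960 and 49860 at P0 to between 2746 and 3799 in EN. Of 8 Schwann cell genes 7 rose in EN and 8 in AN, with summed signals of 757300 to 804200 at P0 and 1277000 to 1324000 at 5 W in EN, and 522100 to 638300 and 1288000 to 1375000 in AN. At P0, 3 of these 8 were lower in AN than in EN and 0 higher, the direction that Mfsd2a also took. Leukocyte genes rose (5 of 7 in EN and 4 of 7 in AN), and platelet genes were called higher too (6 of 6 and 5 of 6, median 3.26 and 2.24). At P0 only 3 of these 6 were above background on all 3 arrays of either root, so the medians rest in part on dim values, and in AN the summed platelet signal overlapped between P0 (7903 to 10770) and 5 W (9805 to 12760). Of 6 tested red cell genes 0 were called at 5 W in limma in either root, and 0 had an unadjusted p below 0.05. Of 7 astrocyte and oligodendrocyte genes 6 rose in AN at 5 W and 2 in EN, and 3 at 1 W and 4 at 5 W were higher in AN than in EN. Neuron genes fell in EN (5 of 7), where their summed signal went from between 68190 and 130600 at P0 to between 16130 and 23620 at 5 W. The part of these cell types in the changes of the 10 genes was not tested.

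The genes most like each member over the 24 arrays, 14243 candidates in all, differed by member. These correlations describe arrays that share stage, slide and scaling, and the arrays of a group are close to each other. Kdr was most like the endothelial genes Cd93 and Sox7 (r = 0.889 and 0.864), followed by Kcnmb4os2 (0.857). Tek was most like She, Arap3 and Scarf1 (0.875, 0.837 and 0.805). Cldn5 was most like Fmo1 and Tpmt (0.826 and 0.819), and the endothelial transcription factor gene Erg came after them (0.816). Mfsd2a was most like Slc36a2, Drp2 and Hspb2 (0.989, 0.988 and 0.987), of which Drp2 encodes a protein of Schwann cell dystroglycan complexes. Slco1a4 was most like Slamf9, Myo1d and Cntf (0.992, 0.991 and 0.989), of which Cntf is a trophic factor of myelinating Schwann cells. Cdh5 was most like C1qtnf2 and Mpg (0.969 each), Plvap most like Hmga1 (0.957), a chromatin protein of dividing cells, and Flt1 most like Tagln (0.969), a smooth muscle gene. Pecam1 had no gene above 0.764. Within the 10, Slco1a4 and Flt1 had the highest correlation (0.955) and Slco1a4 and Plvap the most negative (-0.91).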

How the data were processed

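RNA of 24 nerve root samples was measured on 1-colour Agilent arrays, 1 sample per array. The authors deposited scanner intensity files made with Agilent Feature Extraction 10.7.1.1 together with log2 values, quantile normalised in GeneSpring, for every probe and array. The deposited log2 values were analysed, and the scanner intensity gave the background calls and the alternatives. Each column of the table matched its own scanner file best (r = 0.9955 to 0.9999 against at most 0.9904 with any other column). Probe positions are on mm9.

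Of 56743 rows, 138 control rows were left out. A linear model with 8 group means was fitted to all 24 arrays with limma 3.58.1 in R 4.3.3 over the 36398 probes tested, with Benjamini-Hochberg adjustment over these probes and a call at an adjusted p below 0.05. Simulated data for EN at 5 W against P0 had 36398 probes, with 100 changed 2-fold and 100 changed 4-fold. Of these 42% and 85% were recovered. In the measured data 54.2% of probes were called in this comparison. With so few changed probes the adjustment was stricter in the simulation, so its recovery does not give the power of the measured comparison. Values given as log2 ± are standard errors of this fit unless marked SD. Quantile normalisation sets every array to the same distribution, so changes are relative to the other probes. Arrays measure brightness, not counts, and the number of arrays limits the precision.

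Genes were named by a rule. It took all 10 members, in each other list the 3 tested genes with the highest mean and a set of known genes, and as most like each member the 3 genes with the highest correlation. 1 gene that the rule names is not reported here. Members and lists were chosen with earlier results of these data known. AN and EN samples of the same stage and number share a slide, and their deviations from the group means correlated in all 12 pairs (r = 0.107 to 0.647), so the numbers were taken as pairs, and the value with the pair as a block is given where it changes a call. The ground for pairing was weakest at 3 W. There the pairs gave 0.183, 0.107 and 0.213, while AN replicate 1 with EN replicate 2 gave 0.116 and the other unlike numbers gave negative values. Alternatives were other scaling of the scanner signal, normexp with an offset of 50, other filters, blocks for replicate, pair and slide, array weights, the groups compared alone, other call rules and leaving out each array. The scan day as a block and the pair block without AN replicate 3 at 3 W were added after the data were seen. The authors' methods called genes at an unadjusted p below 0.05 and a fold change above 2.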

Additional observations from a re-analysis of the deposited data

Results flagged for a closer look

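The change since P0 differed between AN and EN, by a test of the difference itself, for 3 genes. Cdh5 differed by -1.002 at 3 W (SE 0.16, adjusted p = 0.00731 in limma) and by -0.79 at 5 W (SE 0.16, adjusted p = 0.0201), and the fall was the larger one in AN. Tek differed by -1.21 at 3 W (SE 0.27, adjusted p = 0.0465), with a log2 change of 0.29 in EN and -0.92 in AN. Mfsd2a differed by 1.26 at 5 W (SE 0.23, adjusted p = 0.0108), with a larger rise in AN. All 4 values share the P0 arrays.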

How the results depend on the processing

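Over all alternatives, leaving out arrays aside, 1675 of 1790 values of single genes kept their side of the threshold, 46 lost a call and 69 gained one. Of called values 0 changed sign, while 33 values that were not called did. The counts of calls among the 10 genes moved as follows, and the cause was not tested. With the AN-EN pair as replicate block, AN against EN gave 4 calls at 1 W, 3 at 3 W and 2 at 5 W, and the interactions 1, 4 and 4 at 1 W, 3 W and 5 W. Of all tested probes this block called 10.8%, 21.1% and 23.5% for AN against EN, and 0.736%, 4.14% and 6.8% for the interactions. The main fit called 4.01%, 5.89% and 6.77% for AN against EN. With 3 W AN replicate 3 left out as well, a fit added after the data were seen, the 3 W counts were 1 and 3 (14.3% and 3.89% of all probes). With the replicate number as a block, comparisons with P0 gave 7, 7 and 8 calls in EN and 4, 9 and 8 in AN. For EN this block called 30.5%, 58.1% and 57.1% of all tested probes, beside 27.1%, 55% and 54.2% without it. For AN the shares were 25.5%, 55% and 53.4%, beside 21.7%, 51.8% and 50.6% without it. The slide as a block gave 2 calls for AN against EN at 5 W and 4 for the interaction at 5 W (14.7% and 3.28% of all probes). The scan day as a block, added after the data were seen, gave the same 2 and 4, and 2 for the interaction at 1 W (13.5%, 3.08% and 0.266% of all probes). Array weights gave 5 calls at 1 W and 0 at 5 W for AN against EN (12.2% and 6.01% of all probes), and 4, 4 and 1 for the interactions (2.43%, 2.44% and 1.28%). The groups compared alone gave 0 at P0 and 0 at 5 W for AN against EN (0% and 0.0962% of all probes), and 3, 1 and 0 for the interactions (1.89%, 0.569% and 0.107%). Scaling to the 75th percentile gave 1 at P0, and 1 and 1 for the interactions at 3 W and 5 W (0.459%, 0.508% and 0.953% of all probes). Without the filter on dim probes there was 1 call at P0 and 1 for the interaction at 3 W (0.334% and 0.254% of all probes). Over probes above background on all 24 arrays there was 1 call for AN against EN at 1 W (3.5% of these probes). Asking for a 2-fold change beside the adjusted p gave 0, 1, 0 and 0 calls for AN against EN in order of stage, 4 in EN at 1 W, 5 in AN at 3 W and 1 for the interaction at 5 W. The share of all probes under this rule was not counted. The methods' rule gave 0 at P0, 3 W and 5 W, 4 in EN at 1 W, 5 in AN at 3 W, and 3 and 1 for the interactions at 1 W and 5 W. In that order it called 1.12%, 5.64%, 5.62%, 13.5%, 28.8%, 3.8% and 4.59% of all tested probes.

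Leaving out in turn each array of the groups compared, the calls for AN against EN ranged from 0 to 2 at P0, 0 to 1 at 1 W, 1 to 1 at 3 W and 0 to 1 at 5 W. Against P0 they ranged from 7 to 7, 6 to 7 and 6 to 7 in EN and 3 to 5, 8 to 9 and 7 to 9 in AN. The interactions ranged from 0 to 0, 1 to 2 and 1 to 2. Shares of all probes called in these fits are not given. The dim Slco1a4 signal at P0 limits how closely its folds are known, and the 3 W arrays share a slide that held no P0 array, so stage and slide cannot be told apart within slides for that comparison.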

Other observations

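Lymphatic vessel and connective tissue genes were also counted. Of 4 tested lymphatic endothelial genes, 1 rose and 2 fell in EN at 5 W against P0, and 0 rose and 2 fell in AN (median log2 change -1.07 and -0.97). Of 7 fibroblast and meningeal genes, 2 rose and 1 fell in EN and 2 rose and 4 fell in AN, and 3 were lower in AN than in EN at 3 W (0 without AN replicate 3) and 3 at 5 W.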
